A study of Mus musculus with 9 samples.

Results

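The genes described here are 6 of the SOCS family (Socs1, Socs2, Socs3, Socs5, Socs6 and Cish) and 2 PIM kinase genes (Pim1 and Pim2), measured in sorted mouse blood stem and progenitor cells during acute myeloid leukemia. They were taken as every probe set on the array that the platform annotation gives to 1 of these 8 symbols alone, which found 19 of 45037 probe sets, or 8 of the 18193 genes named on the array. Of the 19, 16 were bright enough to be tested, and the other 3 are probe sets of Socs2. RNA came from CD45.1+LKS+ bone marrow cells of C57BL/6 mice whose labelled age was 8 weeks; LKS+ cells lack lineage markers and carry Kit and Sca-1, and CD45.1 is a form of a blood cell surface antigen that tells cells of one origin from others. There were 3 groups of 3 arrays each: leukemic mice at day 14, leukemic mice at day 7 and control mice. The cells of all groups are called normal, not leukemic, in the labels, which name no time for the controls and do not say whether a replicate is 1 mouse or a pool; how the leukemia was made is not given in the sources used here. Stage and elapsed time therefore cannot be told apart, and p-values measure the spread between these arrays, which the labels call biological replicates.

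Cytokines bind receptors whose associated JAK kinases phosphorylate STAT factors, and STATs then switch on target genes in the nucleus. SOCS proteins are among those targets and act as a brake: each has an SH2 domain that binds phosphorylated receptors or kinases and a SOCS box that recruits a ubiquitin ligase, and Socs1 and Socs3 also inhibit JAK activity directly. Cish and Socs2 are known mainly as targets of STAT5, and Socs3 mainly as a target of STAT3. PIM kinases are serine/threonine kinases without a need for activation by phosphorylation, so their level follows transcription, which cytokines raise through STATs; they favour survival and protein synthesis in blood cells.

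Promoter windows of Cish and Socs3 carried the letters that STAT dimers bind, and they are shown because these genes had the largest rises below. The windows are RefSeq sequences of build GRCm38.p6, 300 bases long, from 250 before an annotated transcript start to 50 after it. Windows of 5 of the 8 genes were searched (Cish, Socs1, Socs3, Pim1 and Pim2), and Pim1 had 2, which makes 6 windows. No window was available for Socs2 and Socs5, and Socs6 was left out of the search, so the matches reported here say nothing about these genes. The motif searched was TTCNNNGAA, which reads the same on both strands. Capitals mark its matches. The stretches printed have 270 and 250 of the 300 bases, and they lie at chr9:107296409-107296678 on the plus strand for Cish and at chr11:117969367-117969616 on the minus strand for Socs3.
Cish: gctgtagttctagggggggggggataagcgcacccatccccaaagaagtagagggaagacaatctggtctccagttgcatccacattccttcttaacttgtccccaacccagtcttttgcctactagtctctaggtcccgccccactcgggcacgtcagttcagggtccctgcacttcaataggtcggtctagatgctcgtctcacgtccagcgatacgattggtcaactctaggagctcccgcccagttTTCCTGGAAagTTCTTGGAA
Socs3: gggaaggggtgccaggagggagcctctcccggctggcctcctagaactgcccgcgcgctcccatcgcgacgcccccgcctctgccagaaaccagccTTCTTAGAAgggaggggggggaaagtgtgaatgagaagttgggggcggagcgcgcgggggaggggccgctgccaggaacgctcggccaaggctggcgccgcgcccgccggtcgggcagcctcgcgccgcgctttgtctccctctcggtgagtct
The Cish window had 2 matches, at bases 1 to 9 and 12 to 20 from the annotated start, and the Socs3 window had 1, at bases -154 to -146. The Socs3 window lies within the annotated span of the gene, chr11:117966079-117970336, whose 5′ end is further upstream. Its match is therefore upstream of that transcript start but not of the whole gene. Of all 32851 windows of the same length, 8.30% held at least 1 match and 0.457% held at least 2. The windows of Socs1, Pim1 and Pim2 held none, which says only that these letters are not in those windows. A match is a run of letters and shows no binding in these cells.

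At day 14 the inducible brakes Socs3 and Cish and the kinase gene Pim2 were higher than in control, while Socs5 was lower. The rise was 2.97-fold for the brightest Socs3 probe set, 1.87-fold for Cish and 1.58-fold for Pim2. Socs2, a STAT5 target like Cish, was lower at day 14 on its brightest probe set, to 0.78 of the control level. That call depended on how the arrays were scaled. Of 3 tested Socs6 probe sets, 1 was higher. At day 7 none of the 16 probe sets passed the test. The test was limma on log2 intensity across all 27665 probe sets with signal, with p-values adjusted by Benjamini-Hochberg, and calls were made where the adjusted p was under 0.05. Levels of different probe sets are not compared, since each has its own affinity.

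In the F-test over the 3 groups, 10 of the 16 tested probe sets differed, where 47.4% of all did. Of the 16, 6 were called higher and 4 lower at day 14 against control, 10 in all, where 44.4% of all tested probe sets were called (17% higher and 27.5% lower). Against day 7, 8 were called higher and 2 lower at day 14, where 42.2% of all were called (16.5% higher and 25.7% lower). These counts of a small set stand beside a background that is itself high, and no test of the share was made. The groups did not overlap for 11 of the 16 at day 14 against control (53% of all probe sets) and for 10 against day 7 (54.2% of all). By the brightest probe set of each gene, 4 genes were higher and 2 lower at day 14 against control, where 48.6% of all genes were called, and 5 were higher and 1 lower against day 7, where 47.6% were. The median log2 change of the 16 was 0.19 at day 14 against control, beside -0.04 for all tested probe sets. Against day 7 it was 0.29, beside -0.02. The largest of the 16, at 1.57, lay beyond the 90th percentile of absolute changes over all probe sets, which was 0.66. A maximum picked from 16 often lies beyond that percentile, so this does not set the group apart. The split of all calls into higher and lower depends on the scaling: 38.2% of calls at day 14 against control were higher with the values as deposited, 48.3% after quantile normalization and 61.6% with the arrays set to the same 75th percentile, which shifted the median of all changes by 0.12.

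**Figure D1:**
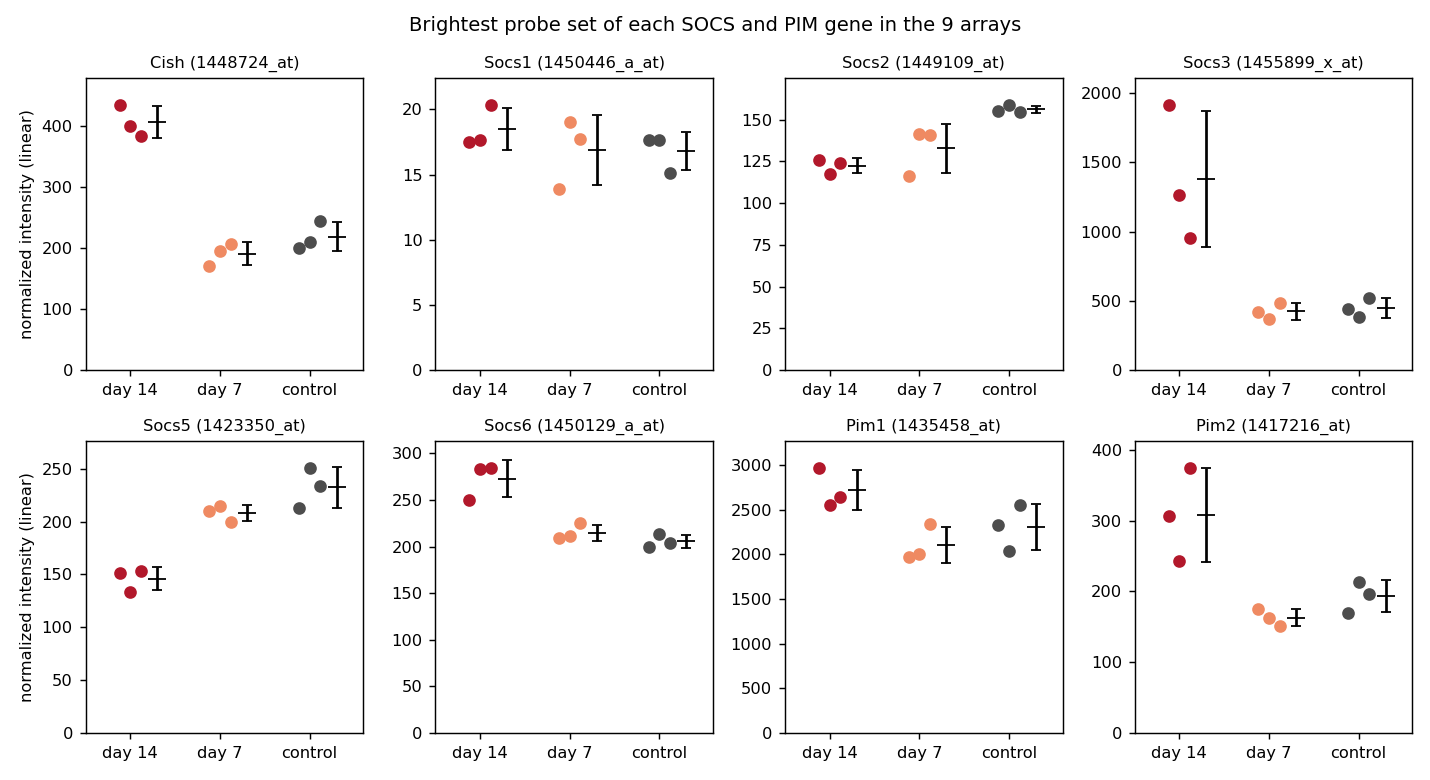
Normalized intensity (linear axis from 0) of the brightest probe set of each gene in the 9 arrays; points are arrays, and the dash and bar beside them are the mean and SD of 3. Cish, Socs3, Socs6 and Pim2 lie above every control and day 7 array at day 14, and Socs5 lies below them.

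Socs3, which binds gp130-type receptors and is induced through STAT3, showed the largest change. Its brightest probe set, 1455899_x_at, measured 1915, 1265 and 954 at day 14, 419, 367 and 486 at day 7, and 440, 381 and 525 in control. Every day 14 array lay above every other array, while day 7 and control overlapped. The mean was 1378 ± 490 at day 14, 424 ± 59.7 at day 7 and 449 ± 72.2 in control (SD, n = 3 each). The log2 change at day 14 was 1.57 against control (SE 0.22, limma adjusted p 0.00053) and 1.65 against day 7 (adjusted p 0.00036).

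The other Socs3 probe sets rose as well. Probe set 1456212_x_at averaged 709 ± 193 at day 14, 236 ± 32.8 at day 7 and 250 ± 41.4 in control (SD, n = 3 each), and 1416576_at averaged 438 ± 110, 180 ± 30.7 and 186 ± 37.2 in the same groups. Their log2 changes against control were 1.48 (SE 0.19) and 1.22 (SE 0.20), with limma adjusted p of 0.00032 and 0.0010. The suffix _x_at marks probes that can also bind other transcripts, and the probe set without it gave the smallest of the 3 changes. Day 14 replicate 1 was the highest array in all 3 probe sets, and without it the log2 changes against control were 1.30, 1.28 and 1.03. Among the day 14 arrays the coefficient of variation was 35.6% for the brightest Socs3 probe set, the highest of the 16, and 6.29% for Cish.

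**Figure D2:**
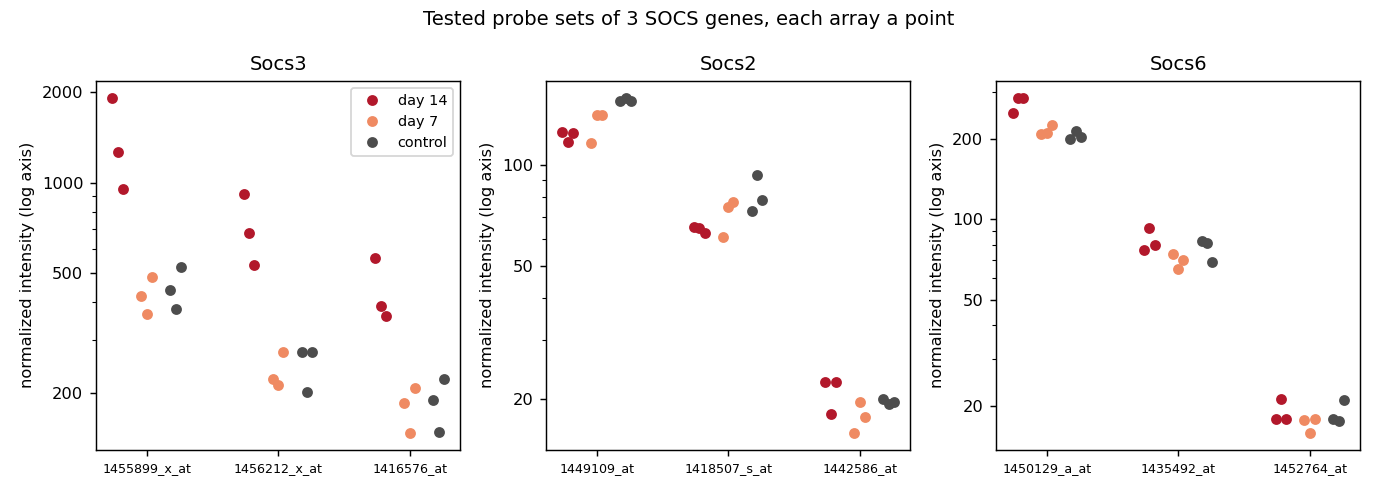
Normalized intensity (log axis) of each tested probe set of Socs3, Socs2 and Socs6; each point is an array, with day 14, day 7 and control from left to right within a probe set. The 3 Socs3 probe sets rise together at day 14, the 2 brighter Socs2 probe sets fall below control, and only the brightest Socs6 probe set separates the day 14 arrays from the rest.

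Cish, a STAT5-induced brake on cytokine receptors, was read by 1 probe set, 1448724_at. It measured 435, 401 and 385 at day 14, 170, 196 and 207 at day 7, and 200, 211 and 245 in control. The 3 day 14 arrays stood clear of the other 6. The log2 change was 0.90 against control (SE 0.10, limma adjusted p 0.00015) and 1.09 against day 7 (SE 0.10, adjusted p 6.6e-05). At day 7 the change from control was -0.19 with a 95% interval of -0.42 to 0.03, an interval that includes 0. With each array left out in turn, the change at day 14 against control stayed between 0.84 and 0.99 and kept its call.

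Socs2, a STAT5-induced brake on growth hormone signalling, was lower at day 14. Its brightest probe set, 1449109_at, measured 126, 117 and 124 at day 14, 116, 141 and 141 at day 7, and 155, 159 and 155 in control. The day 14 and control arrays did not overlap, the day 7 arrays also lay below control, and days 14 and 7 overlapped. The log2 change was -0.35 at day 14 against control (SE 0.08, limma adjusted p 0.0078). This call was lost with either other scaling of the arrays and with the mean of the gene's tested probe sets. At day 7 the change from control was -0.24, the only one of the 16 with an unadjusted p below 0.05, and its adjusted p was 0.14. A second probe set, 1418507_s_at, averaged 64.3 ± 1.41 at day 14, 71.0 ± 8.73 at day 7 and 81.6 ± 10.7 in control (SD, n = 3 each); its log2 change of -0.34 at day 14 against control had an adjusted p of 0.033. That call did not hold with either other scaling, without control replicate 2, or without any one of the day 14 arrays. The third tested probe set, 1442586_at, was dim, at 21.0 ± 2.57 at day 14 and 19.7 ± 0.35 in control (SD, n = 3 each), and its change of 0.09 did not pass. The 3 remaining Socs2 probe sets lay below the 40th percentile of every array, with means of 3.07 to 9.30 at day 14 and 3.23 to 9.35 in control, and were not tested.

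Socs5, which restrains EGF receptor and IL-4 signalling, was lower at day 14. Probe set 1423350_at measured 151, 134 and 153 at day 14, 210, 215 and 200 at day 7, and 213, 251 and 234 in control. The day 14 arrays lay below all others. The log2 change was -0.67 against control (SE 0.08, limma adjusted p 0.00026) and -0.51 against day 7 (adjusted p 0.00096), and both calls held under each scaling. The other probe set, 1423349_at, gave 151, 128 and 146 at day 14, 172, 196 and 155 at day 7, and 166, 197 and 185 in control. Its changes of -0.37 against control and -0.30 against day 7 had adjusted p of 0.018 and 0.046, and both calls were lost with either other scaling; the first was also lost without control replicate 2 or day 14 replicate 2, and the second without any one of 6 arrays.

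Socs6, a SOCS protein that acts on receptor tyrosine kinases such as Kit, gave a mixed reading. Probe set 1450129_a_at measured 250, 284 and 285 at day 14, 209, 211 and 225 at day 7, and 199, 213 and 204 in control. Its day 14 arrays did not overlap the rest, and the log2 change was 0.41 against control (SE 0.07, limma adjusted p 0.0019) and 0.34 against day 7 (adjusted p 0.0047). The 2 dimmer probe sets, 1435492_at and 1452764_at, the second of which averaged 18.9 at day 14 and 18.8 in control, near the filter on dim signals, changed by 0.09 and 0.01 against control and did not pass, with 95% intervals of -0.13 to 0.32 and -0.21 to 0.23. With the mean of the 3, the change against control was 0.17 and did not pass.

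Socs1, a brake on interferon signalling, was close to the limit of detection. Its single probe set, 1450446_a_at, read 17.5, 17.7 and 20.3 at day 14, 13.9, 19.0 and 17.7 at day 7, and 17.7, 17.7 and 15.1 in control, where the 40th percentile of an array was 14.1 to 15.2. The groups overlapped, and the log2 change at day 14 was 0.14 with a 95% interval of -0.14 to 0.41. At this dim signal the arrays do not settle its direction.

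Pim1, a kinase gene induced by many cytokines, was higher at day 14 than at day 7, while against control its call depended on the processing. Probe set 1435458_at measured 2970, 2548 and 2638 at day 14, 1968, 2005 and 2340 at day 7, and 2324, 2042 and 2556 in control. The day 14 arrays lay above those of day 7 but overlapped control, and the log2 change was 0.37 against day 7 (SE 0.11, limma adjusted p 0.018) and 0.24 against control (adjusted p 0.088). The other Pim1 probe set, 1423006_at, read 929, 630 and 679 at day 14, 491, 431 and 641 at day 7, and 547, 498 and 584 in control, so day 14 lay above control while overlapping day 7. Its change was 0.44 against control (adjusted p 0.057) and 0.52 against day 7 (adjusted p 0.032). Against control it passed under 10 of 20 alternatives, both other scalings among them, with adjusted p from 0.026 to 0.19 apart from the 2-fold rule. Against day 7, neither Pim1 call held when replicate 1 or 2 of day 7, or replicate 1 of day 14, was left out.

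Pim2, a kinase that supports growth and survival, measured 307, 243 and 375 at day 14, 176, 162 and 151 at day 7, and 169, 214 and 196 in control on probe set 1417216_at. All day 14 arrays were above all others, although day 14 itself spread widely. The log2 change was 0.66 against control (SE 0.15, limma adjusted p 0.0057) and 0.90 against day 7 (SE 0.15, adjusted p 0.0010). Leaving out any 1 array kept both calls, with the change against control between 0.51 and 0.82.

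**Figure D3:**
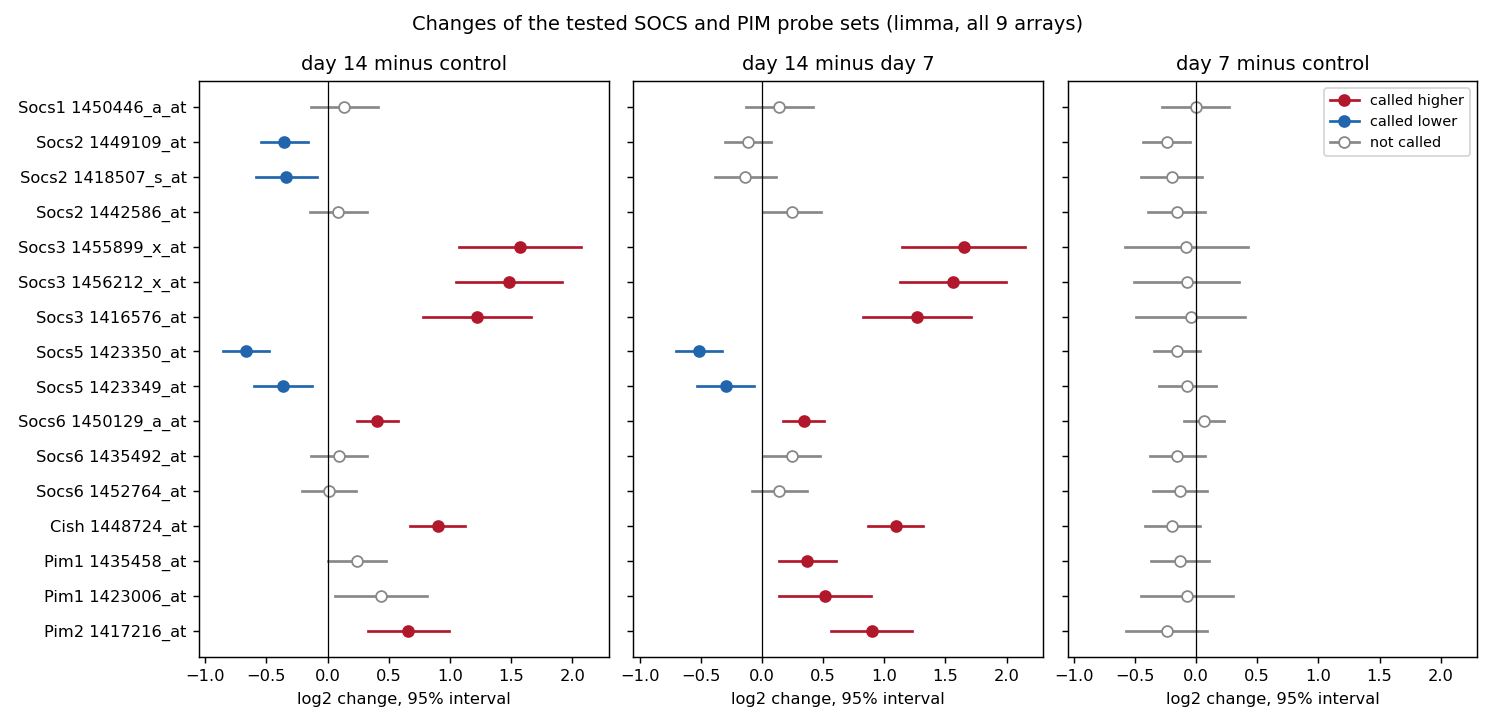
Log2 change of each of the 16 tested probe sets with its 95% interval from limma, in 3 comparisons; filled red and blue points passed the adjusted test as higher or lower, and open points did not. The day 7 against control panel holds no filled point, and the Socs3 probe sets have the largest changes in both panels of day 14.

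At day 7 against control, 0 of the 16 probe sets were called by limma, where 3.39% of all tested probe sets were (1.9% higher and 1.49% lower). Their log2 changes ran from -0.24 to 0.06, with a median of -0.13 beside 0.00 for all probe sets, and the smallest adjusted p was 0.14. An unadjusted p below 0.05 was reached by 1 of them, the Socs2 probe set 1449109_at, which was also the only one whose groups did not overlap (27.8% of all probe sets). The comparisons with control share the control arrays, and those of day 14 share the day 14 arrays.

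**Figure D4:**
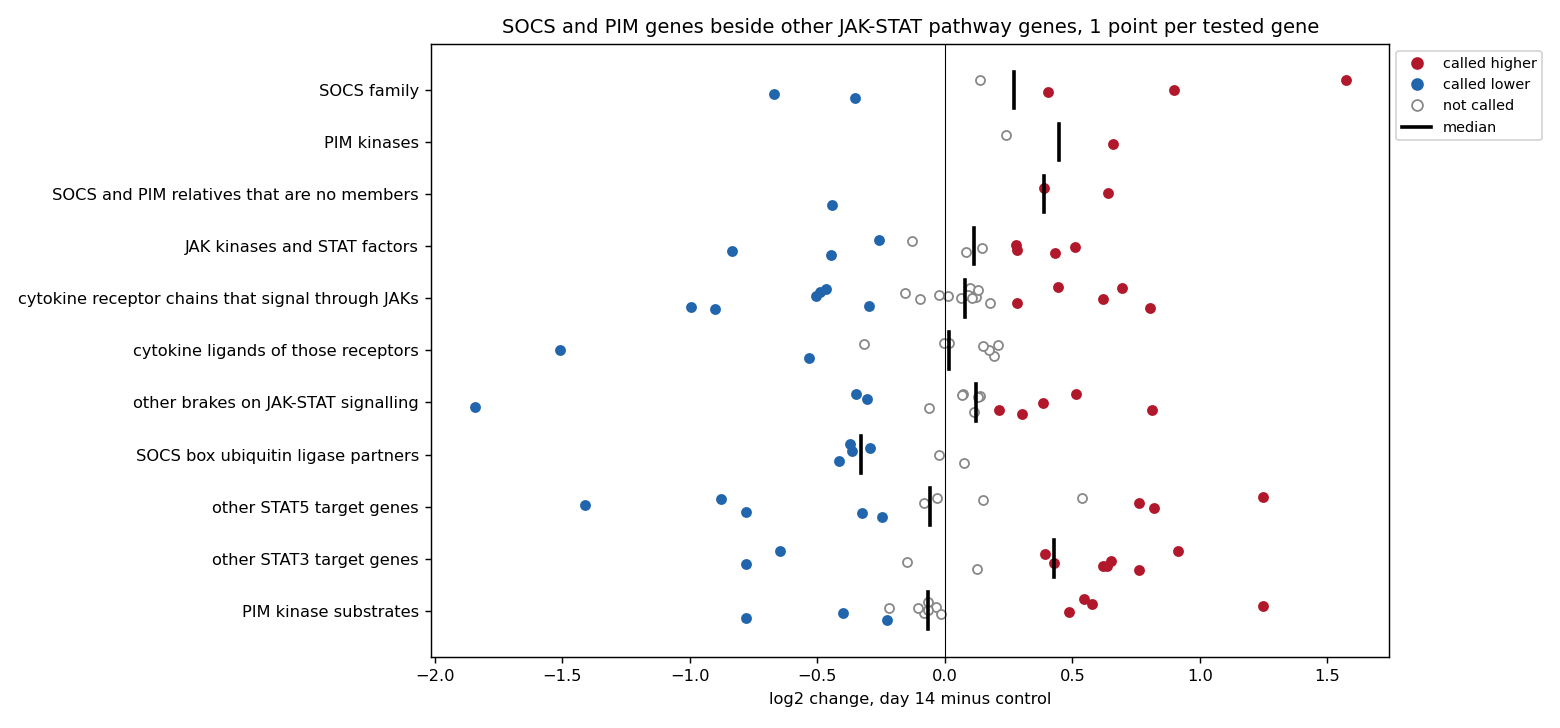
Log2 change at day 14 against control of the tested genes of the SOCS, PIM and pathway lists (brightest probe set, 1 point per gene; vertical offsets within a list carry no meaning); red and blue points were called higher and lower, open points were not called, and bars are medians. The STAT3 target genes lie mostly above 0, the ubiquitin ligase partners mostly below, and the SOCS family spans both sides.

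Other genes of the pathway, each read by its brightest probe set, were counted from lists. Over all 12652 genes so read, 16.6% were called higher and 32.1% lower at day 14 against control, and 15.7% and 31.9% against day 7. At day 7 against control 2.71% were called, 1.81% higher and 0.901% lower. Of 22 tested cytokine receptor chains, 5 were higher and 6 lower. Il6ra, the receptor chain for IL-6, rose 1.75-fold (359 ± 10.5 at day 14, 207 ± 36.0 in control, SD, n = 3), and Csf2rb2, the mouse beta chain specific to IL-3, rose 1.62-fold. Ifngr2, a chain of the interferon-gamma receptor, fell by 0.99 on the log2 scale (SE 0.11), and the IL-21 receptor gene Il21r fell by 0.90. Against day 7, the common beta chain gene Csf2rb rose by 0.77 on the log2 scale. Of 9 tested cytokine genes, Il12a fell by 1.51 and Il7 by 0.53, and none was higher. Against day 7, Lif fell by 0.54 and Il4, near the filter at 21.2 ± 2.02 at day 14 and 15.9 ± 2.82 at day 7 (SD, n = 3 each), was higher by 0.43. The Lif call was lost without any one of 5 arrays and the Il4 call without any one of 3.

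Of 10 tested JAK and STAT genes, 4 were higher and 3 lower at day 14 against control. Stat3, the factor that induces Socs3, measured 923 ± 66.1 at day 14 and 649 ± 74.7 in control (SD, n = 3), a log2 change of 0.51 (SE 0.10, limma adjusted p 0.0024). Stat5b, which induces Cish and Socs2, changed by 0.43, while Stat5a, at 0.15, did not pass (adjusted p 0.20). Stat2, part of the interferon-activated complex, fell by 0.83 and Stat4 by 0.44. Jak1 and Jak2, the kinases of most cytokine receptors, were each higher by 0.28, and Jak3 fell by 0.26. These small JAK changes were not rerun under the other processing settings. With the arrays set to the same 75th percentile, the median of all changes shifted by 0.12 in this comparison.

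Target genes of the STATs were counted by factor. Of 11 tested STAT3 targets other than Socs3, 7 were higher and 2 lower at day 14, with a median log2 change of 0.43 beside -0.06 for all genes. The transcription factor gene Cebpb rose 1.88-fold and the survival gene Mcl1 1.69-fold, while Myc fell by 0.78 and Batf by 0.65. Of 12 tested STAT5 targets other than the members, 3 were higher and 5 lower: Cdkn1a, the gene of a CDK inhibitor, rose by 1.25 and the repressor gene Bcl6 by 0.82, whereas the cyclin gene Ccnd1 fell by 1.41 and Gfi1, a repressor of stem and myeloid cells, by 0.88. Some genes, among them Myc and Mcl1, stand in both lists. Cdkn1a was already higher at day 7, by 0.69, a call that did not hold without replicate 1 or 3 of day 7.

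Of 3 relatives outside the 8 genes, 2 were higher at day 14. Pim3, the remaining PIM kinase gene, averaged 964 ± 107 at day 14, 778 ± 16.9 at day 7 and 618 ± 46.7 in control (SD, n = 3 each), and it rose by 0.64 on the log2 scale against control (limma adjusted p 0.00052). Socs7 rose by 0.39. For Socs4 the probe sets disagreed: the brightest fell by 0.44 on the log2 scale against control, while 2 of the others rose by 0.81 and 0.92, so no direction can be given for that gene.

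Among other brakes on JAK-STAT signalling, 5 of 14 tested genes were higher and 3 lower at day 14. The phosphatase gene Dusp3 rose by 0.81, and Usp18, which blocks the type I interferon receptor, fell by 1.84 at day 14 and by 1.05 at day 7, where leaving out any day 7 or any control array ended the call. Pias2 rose by 0.52 on its brightest probe set, but the mean of its probe sets fell. Pias3 fell by 0.35, a call lost with the same 75th percentile and with the mean of its probe sets. Of 6 tested elongin, cullin and other ubiquitin ligase genes listed for the SOCS box, 4 were lower and none higher. Cul5 fell by 0.37, the elongin C gene Eloc by 0.37 and the elongin B gene Elob by 0.29. The cullin gene Cul2, also in that list, fell by 0.42. With the mean of its probe sets, Cul2 fell by 0.15 and did not pass. Of 14 tested PIM substrates, 4 were higher and 3 lower, with Foxo1 at 0.58 and Cdc25c at -0.40 besides Cdkn1a and Myc; the Cdc25c call was lost without control replicate 1 or 2 or any day 14 array. At day 7, Cdc25c, a phosphatase of mitotic entry, was higher by 0.97.

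For each member that differed among the groups, the genes with the most similar pattern were those with the smallest root mean square difference in centred log2 intensity over the 9 arrays, among 11971 other named genes. Nearest to Socs3 was Btg1, an antiproliferative gene, at 0.22, with a change at day 14 of 1.26, followed by Rora (0.23) and Adgre5 (0.24). Nearest to Cish were Ctla2b (0.10), Pdgfrb (0.10) and Birc3 (0.12). Cnrip1 (0.05), Ebi3 (0.06) and Cul7 (0.06) lay nearest to Socs2, and Exoc8, Pus7l and Nagk, between 0.04 and 0.05, to Socs5. For Socs6 these were Slc45a1 (0.04), Rabgap1l (0.05) and Arsi (0.05), for Pim1 Pcmtd2 (0.03), Rasgrp3 (0.05) and Dhrs3 (0.06), and for Pim2 Ndrg1 (0.14), Fam216b (0.15) and Enah (0.16). Fam216b was dim, with means of 16.5 at day 14, 9.85 at day 7 and 9.99 in control. Its day 7 and control means lay below the filter on dim signals. Members with small changes have close neighbours by construction of this measure.

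Markers were used to check the labelled cells and to list what else differed. Ptprc, which encodes CD45, measured 2849 ± 127 at day 14, 2304 ± 29.2 at day 7 and 2605 ± 37.0 in control, and Kit measured 1696 ± 199, 1453 ± 65.5 and 1720 ± 40.3 in the same groups (SD, n = 3 each). The gene of Sca-1, Ly6a, had no probe set under its symbol alone. In what follows, counts are of tested genes, while summed intensities are over all measured genes of a list, untested ones included. Of 10 stem and progenitor markers 2 were lower at day 14 against control, and their summed intensity was 12107 to 13166 at day 14, 11049 to 11651 at day 7 and 12309 to 12856 in control. Of 8 tested megakaryocyte genes 6 were higher at day 14 against control, with a summed intensity of 1489 to 1715 at day 14, 741 to 809 at day 7 and 573 to 683 in control. Of 4 mast cell and basophil genes 2 were higher (1200 to 1440 at day 14, 669 to 760 at day 7, 481 to 660 in control), and of 6 endothelial and stromal genes 3 were higher and 1 lower (1584 to 1749 at day 14, 904 to 1002 at day 7, 1034 to 1069 in control). For these 3 lists the day 14 sums lay above those of both other groups. Pdgfrb alone averaged 1428 at day 14, 673 at day 7 and 771 in control, and so made up most of the endothelial and stromal sums. Of 7 B cell genes 5 were higher and 1 lower, and the sums of that list were already above control at day 7 (406 to 494 at day 14, 393 to 474 at day 7, 274 to 278 in control). Of 14 granulocyte and monocyte genes 6 were higher and 2 lower, and the sums of day 14 and day 7 overlapped (10538 to 13314 at day 14, 8931 to 10925 at day 7, 7788 to 9638 in control). Of 4 T and NK cell genes 2 were higher and 1 lower (604 to 709 at day 14, 910 to 935 at day 7, 763 to 887 in control), and of 3 erythroid genes 1 was higher (768 to 792 at day 14, 733 to 754 at day 7, 648 to 770 in control). The part of such cells in the changes of the SOCS and PIM genes was not tested, and a change in the share of a cell type cannot be told apart from a change of RNA per cell in these bulk samples.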

How the data were processed

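The values were the authors' deposited normalized intensities, on a linear scale, 1 for each probe set of an array, from Affymetrix Mouse Genome 430 2.0 arrays; the submitters amplified RNA in 2 cycles and, per the series' design text, signals were normalized with Microarray Analysis Software 5.0. Exact ties between arrays occurred in 51.6% of probe sets, so that step is uncertain and the scaling was varied. Such amplification shortens products towards the 3′ end, and probe sets of 1 gene can differ. Probe sets were named from the platform annotation (34945 had 1 symbol, 932 several and 9160 none).

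A floor at 5.81, the 20th percentile of all values, was set and log2 taken. Probe sets above the 40th percentile of their array in at least 3 arrays were tested: 27665. A single limma 3.58.1 model in R 4.3.3 covered all 9 arrays with no covariates; tests were two-sided, moderated and adjusted by Benjamini-Hochberg over all 27665. In lists the probe set with the highest mean stood for a gene. No batch was labelled, and the number of arrays limits the precision. In simulated data for day 14 against control, 50 of 27665 probe sets were changed at each size. Log2 changes of 0.25, 0.5, 1 and 2 were recovered in 4%, 60%, 90% and 98% of them. The adjusted threshold is stricter where so few probe sets change than in these data, where 44.4% were called in that comparison. The rates therefore do not give the share of changes missed here. The members and lists were chosen with earlier results of these data known. Named pathway genes were up to 2 called per direction, list and comparison by size of change; others are named where the text turns on them, after their values were seen. Alternatives were 2 scalings, the floor, an offset of 32, the filter, the summary of probe sets, the replicate block, fewer groups, 2 variance models, a 2-fold rule and each array left out. They were run for the members and for the pathway genes named by size of change. The result of 1 further pathway list is not reported here.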

Additional observations from a re-analysis of the deposited data

Results flagged for a closer look

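The change from control differed between day 14 and day 7, by the limma test of day 14 against day 7, for 10 probe sets. The differences in log2 change were 1.65, 1.56 and 1.27 for Socs3, 1.09 for Cish, 0.90 for Pim2, 0.37 and 0.52 for Pim1, 0.34 for Socs6, and -0.51 and -0.30 for Socs5. They draw on the same day 14 arrays, and 42.2% of all tested probe sets were called in that comparison.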

How the results depend on the processing

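None of the 48 log2 changes of the tested probe sets reversed as a called value; of 999 values under the alternatives, 928 kept their side of the threshold, 50 lost a call and 21 gained one. The counts of 6 higher and 4 lower at day 14 against control, and of 8 higher and 2 lower against day 7, moved as follows. Lower probe sets against control became 1 with quantile normalization, with the same 75th percentile and with probe sets averaged per gene, and 2 without the filter on dim probe sets and with 1 probe set per gene. Lower probe sets against day 7 became 1 in each of these settings, with only the 2 groups compared and with the replicate block. With the same 75th percentile, higher probe sets became 8 against control and 11 against day 7, and with quantile normalization 7 and 9. Without the filter on dim probe sets they were 6 in both comparisons. Higher probe sets against day 7 became 5 with either summary per gene, which has 8 genes in place of 16 probe sets. With a change of at least 2-fold required, 3 were higher and 0 lower against control and 4 higher and 0 lower against day 7. Leaving out each array in turn gave 6 to 7 higher and 2 to 4 lower against control, and 6 to 9 higher and 1 to 2 lower against day 7. Counts at day 7 against control were 0 in all settings run. Among the pathway genes, Socs4 reversed with the mean of its probe sets, to 0.43 against control and 0.24 against day 7, and Pias2 to -0.31; the probe sets of these genes differ in direction. In a check of the replicate block, arrays of the same number had deviations correlated from -0.13 to 0.11 over probe sets, and 3 of 9 matched their own number best. With 3 arrays in each group, this check cannot settle whether the numbers pair the samples. Dim signals limit Socs1, 4 Socs2 probe sets and the Socs6 probe set 1452764_at.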
